A study of Mus musculus with 16 samples.

Results

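The 10 genes described here encode the main apical sodium transporters of the renal tubule and the potassium channel that works beside 1 of them. They also encode kinases of a pathway that activates some of these transporters. The genes are Slc9a3, Slc12a1, Slc12a3, Scnn1a, Scnn1b, Scnn1g, Kcnj1, Wnk1, Wnk4 and Stk39. They were taken by gene symbol from a table of estimated counts for 57186 genes. Each of the 10 symbols stood on 1 row, and all 10 genes passed the filter on low counts. Whole-kidney RNA was sequenced from 16 male mice in 4 labelled groups of 4. All 16 mice were Elmo1H/H, an allele that raises expression of the engulfment and cell motility gene Elmo1, so the control mice carried it too. The non-diabetic mice were Ins2+/+ and were either untreated (ND_C) or given vitamin B12 (ND_B12). The diabetic mice carried 1 Ins2Akita allele, a mutation that misfolds insulin in the pancreatic beta cell, and were either untreated (D_C) or given B12 (D_B12). Treated mice drank water with B12, at a daily dose of 10 mg/kg, from the age of 8 weeks. The labels put the length of treatment at 16 weeks, whereas the methods give a shorter course.

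Sodium is taken back from the filtrate in sequence along the nephron. NHE3, the sodium/proton exchanger encoded by Slc9a3, works in the proximal tubule, and NKCC2, encoded by Slc12a1, carries sodium with potassium and chloride in the thick ascending limb, where ROMK, encoded by Kcnj1, returns potassium to the lumen. NCC, encoded by Slc12a3, carries sodium with chloride in the distal convoluted tubule, and the epithelial sodium channel ENaC, built from the products of Scnn1a, Scnn1b and Scnn1g, works in the connecting tubule and collecting duct under aldosterone. The WNK kinases, here Wnk1 and Wnk4, activate SPAK, encoded by Stk39, which phosphorylates and activates NCC and NKCC2. Most of this control acts on the proteins and their phosphorylation, which RNA counts do not measure.

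Estimated counts summed to between 65271308 and 91771136 per library. Every group name below is that of the labels. The group means in a supplementary table of the study were matched best by other sets of 4 libraries, which left 5 of 16 libraries in the group the labels give. By that match all 4 libraries labelled D_B12 made up the untreated diabetic group, 3 of the 4 labelled D_C belonged to the treated diabetic group, and 2 libraries, ND_B12 4 and D_C 1, stood on the other side of the diabetes split. Results for diabetes are therefore given with and without those 2 libraries. Leaving them out does not settle which diabetic kidneys were treated, since by that match the 3 D_C libraries left would be treated ones. The comparisons in untreated and in B12-treated kidneys thus rest on the labels, and for B12 in diabetic kidneys the labels fix the sign. The dates in the library names also follow the groups. No date holds libraries of both D_C and D_B12, of both ND_C and D_C, or of both ND_B12 and D_B12. Date therefore cannot be told apart from B12 treatment in diabetic kidneys, or from diabetes in untreated or in B12-treated kidneys. Markers of each tubule segment were detected, for example Umod of the thick ascending limb, and the summed level of the 4 adipocyte markers ranged from 10.9 to 4209 normalized counts. In bulk RNA, fewer cells of a type and less RNA per cell cannot be told apart.

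Compared per length, in TPM (counts divided by transcript length and scaled to a common total) over protein-coding transcripts, the genes fell into 4 tiers. Slc12a1 was the most abundant, at 310 ± 85.9 TPM (SD, n = 16), followed by Slc12a3 at 212 ± 16.0 TPM. Their ranges overlapped between libraries, whereas the lowest library for Slc12a3, at 186 TPM, lay above the highest for Wnk1, at 119 TPM. Wnk1 stood at 103 ± 10.0 TPM and Kcnj1 at 95.1 ± 12.6 TPM, with overlapping ranges. The third tier held Wnk4 at 47.6 ± 5.34 TPM, Scnn1a at 47.3 ± 4.89 TPM and Slc9a3 at 41.9 ± 4.14 TPM, again with overlapping ranges. Scnn1b at 15.1 ± 1.65 TPM, Stk39 at 14.9 ± 2.58 TPM and Scnn1g at 13.7 ± 1.39 TPM were lowest and did not separate. The alpha subunit of ENaC was thus above both other subunits in every library, since the lowest Scnn1a value was 39.8 TPM and the highest Scnn1b value 18.2 TPM.

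Slc12a1 spans chr2:124994425-125071922 (GRCm39, plus strand), and its 3 main protein-coding transcripts differ in a single exon. Each holds 1 of 3 alternative copies of exon 5, which lie one after another in the gene, are all 96 bases long and are all coding. Splicing of these copies is known to set where along the thick ascending limb a form of NKCC2 is made. The copies are shown because these exons are what sets the 3 transcripts apart. They were read from the GRCm39 genome, 5′ to 3′ on the plus strand, from chr2:125007415-125007510 for Slc12a1-202, chr2:125008043-125008138 for Slc12a1-201 and chr2:125008593-125008688 for Slc12a1-203, and capitals mark the 45 positions at which the 3 copies do not all agree.
Slc12a1-202: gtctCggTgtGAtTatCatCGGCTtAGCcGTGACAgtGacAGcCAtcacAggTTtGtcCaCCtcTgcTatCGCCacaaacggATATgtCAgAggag
Slc12a1-201: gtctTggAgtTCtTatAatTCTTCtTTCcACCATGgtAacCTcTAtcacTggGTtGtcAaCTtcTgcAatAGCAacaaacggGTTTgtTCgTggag
Slc12a1-203: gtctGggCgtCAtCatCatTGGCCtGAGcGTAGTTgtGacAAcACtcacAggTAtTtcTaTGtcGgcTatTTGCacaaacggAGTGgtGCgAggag
The copies of Slc12a1-202 and Slc12a1-203 matched at 66 of 96 positions, those of Slc12a1-202 and Slc12a1-201 at 63, and those of Slc12a1-201 and Slc12a1-203 at 56. The longest stretch shared by all 3 was 8 bases.

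Kcnj1 spans chr9:32283789-32310493 (plus strand) and had 2 transcripts that carried nearly all of its count. Kcnj1-202 starts downstream of Kcnj1-201 and opens its reading frame earlier, so that its coding sequence is 60 bases longer. The part of this coding sequence that lies in no exon of Kcnj1-201 is 39 bases of exon 1, at chr9:32305440-32305478, in which capitals mark the start codon, and it is shown because it sets the 2 forms of the channel apart.
Kcnj1-202: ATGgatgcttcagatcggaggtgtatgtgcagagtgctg

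Diabetes was compared first over both treatments, with 8 diabetic and 8 non-diabetic kidneys. No member passed an adjusted p of 0.05 in edgeR's quasi-likelihood test, against 3.02% of the 25408 genes tested. An unadjusted p below 0.05 was found for 2 of 10, near the 19.4% of all genes, and the 8 diabetic and 8 non-diabetic libraries overlapped for all 10, whereas 0.386% of genes did not overlap. The members' median log2 fold change was 0.05, beside 0.01 over all genes tested. DESeq2 called 1 member, Stk39, in the same comparison, against 8.54% of the genes it tested. Without ND_B12 4 and D_C 1, 3 members passed the quasi-likelihood test, against 10.2% of genes: Stk39 and Slc9a3 were higher and Slc12a3 was lower in diabetic kidneys. In untreated kidneys alone, 0 of 10 members passed, against 1.66% of genes, and 5 had an unadjusted p below 0.05, against 18.6%. For 3 of the 10, Slc12a3, Scnn1b and Wnk4, the 4 D_C and the 4 ND_C libraries did not overlap, as was so for 9.44% of all genes. The same comparison gave 4 calls without the 2 libraries, against 8.57% of genes, and 4 calls in DESeq2, against 7.83%. In B12-treated kidneys no member passed, against 0.823% of genes, and none passed in DESeq2, against 5.22%, or without the 2 libraries, against 2.8%. There 2 members, Scnn1a and Scnn1b, had an unadjusted p below 0.05, against 17% of genes, and no member was without overlap, against 11.7%.

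Some calls depended on D_C 1 alone. Without it, 1 member passed over both treatments, against 6.79% of genes, and 3 passed in untreated kidneys, against 6.2%. None passed in B12-treated kidneys, against 1.63%, for B12 in diabetic kidneys, against 0.276%, or for the interaction, against 1.06%. With the replicate number as a block, none of the 10 passed anywhere, against 1.88% of genes over both treatments, 1.06% in untreated kidneys, 0.0984% in B12-treated kidneys and 0.579% for the interaction. With protein-coding transcripts alone, again none passed, against 2.59% of genes over both treatments, 2.03% in untreated and 0.0257% in B12-treated kidneys. With the date in the library names as a covariate, 2 members passed for the interaction, against 2.96% of genes. Under that fit none passed for B12 in diabetic kidneys, against 0.803% of genes, in B12-treated kidneys, against 0.114%, or in untreated kidneys, against 0.00787%.

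**Figure D1:**
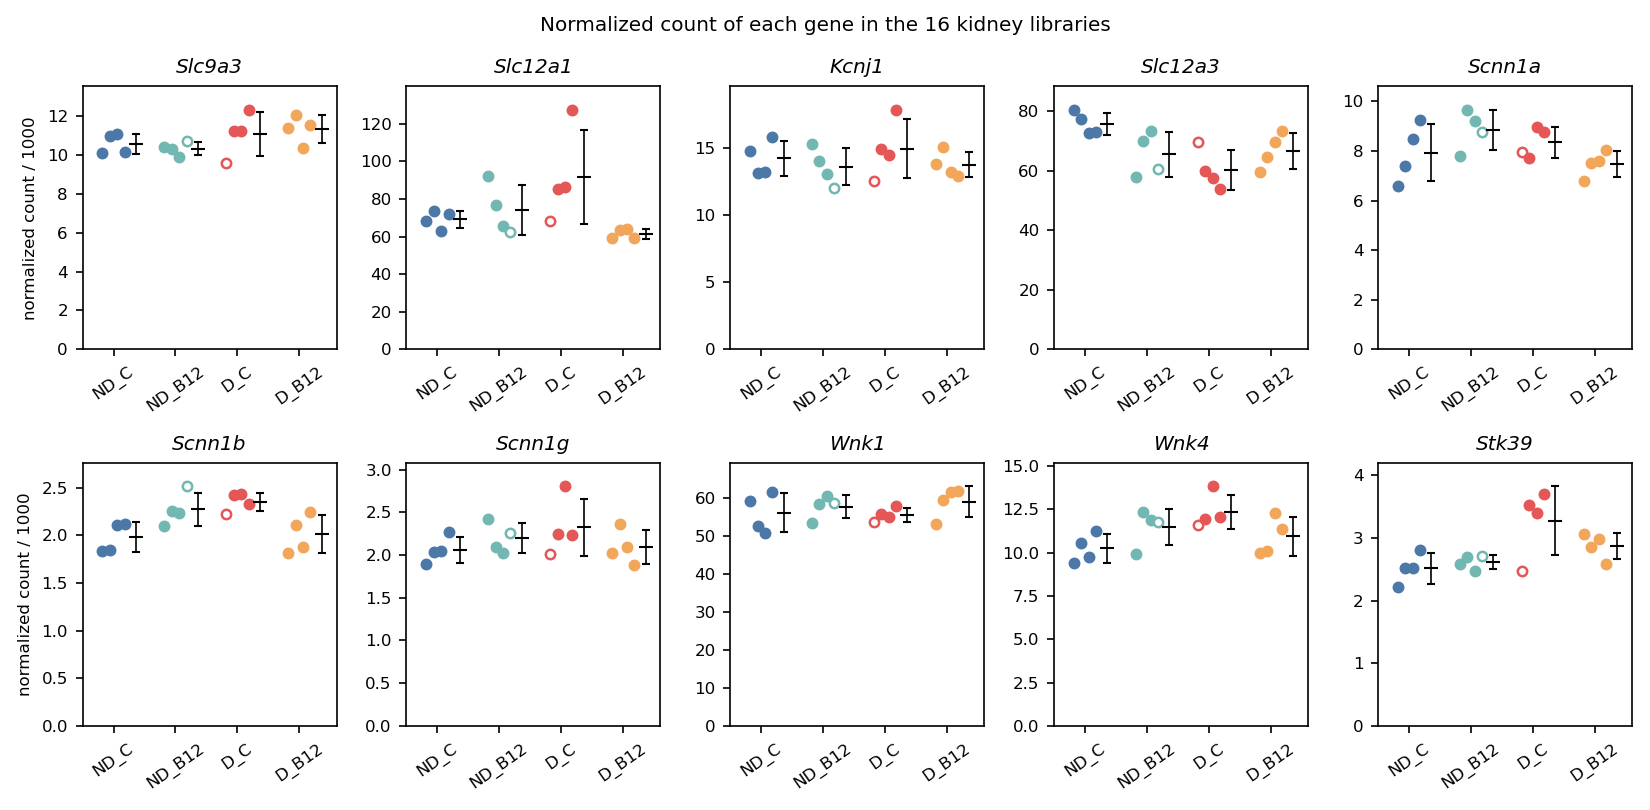
Normalized count of each of the 10 genes (y axis, from 0, scaled as labelled) in the 16 libraries, by labelled group (x axis). Filled points are libraries, open points are ND_B12 4 and D_C 1, and the bar beside each group is its mean ± SD (n = 4). The 3 filled D_C points of Stk39 lie above every non-diabetic library, and the 4 D_C points of Slc12a3 lie below every ND_C library.

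Stk39 (chr2:68040789-68302723, minus strand), the SPAK kinase, had the largest difference of the 10 with diabetes over both treatments. Its normalized counts were 2213, 2517, 2513 and 2815 in ND_C and 2578, 2692, 2471 and 2711 in ND_B12. They were 2471, 3522, 3405 and 3696 in D_C and 3061, 2850, 2984 and 2580 in D_B12. Of the 8 diabetic libraries, 6 lay above every non-diabetic library, and D_C 1 was the lowest of them. The log2 fold change over both treatments was 0.26 (SE 0.07), with an adjusted p of 0.0735 in edgeR, and DESeq2 gave 0.26 with an adjusted p of 0.0207. Without D_C 1 the difference was 0.31 (adjusted p = 0.00393), and without both doubted libraries it was 0.32 (SE 0.06, adjusted p = 0.00264), which is 25.2% above the non-diabetic level. Of 25 alternative fits, only these 3, DESeq2 and the 2 with libraries left out, called Stk39 over both treatments. Over the 25 fits the log2 fold change ran from 0.11 to 0.32. In untreated kidneys it was 0.38 (SE 0.11, adjusted p = 0.0739) with all libraries and 0.49 (SE 0.08, adjusted p = 0.00338) without the 2. In B12-treated kidneys it was 0.13 (SE 0.11, adjusted p = 0.561), and the test of the difference between these effects gave -0.25 (SE 0.15, adjusted p = 0.449).

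Wnk4 (chr11:101151246-101168235, plus strand), the WNK kinase best known from the distal convoluted tubule, was higher in D_C than in ND_C without passing the quasi-likelihood test. It stood at 9383, 10572, 9778 and 11253 normalized counts in ND_C and at 11606, 11945, 13822 and 12053 in D_C, so the groups did not overlap. The log2 fold change was 0.27 (SE 0.09), with an adjusted p of 0.114 in edgeR and 0.0466 in DESeq2. With protein-coding transcripts alone, it was 0.18 (adjusted p = 0.334), and the D_C and ND_C counts overlapped. DESeq2 was the only 1 of 26 alternative fits that called Wnk4 in untreated kidneys, so Wnk4 did not pass without ND_B12 4 and D_C 1. Wnk1 (chr6:119900930-120015660, minus strand) showed the smallest difference of the 10, at -0.01 (SE 0.07) in untreated kidneys and 0.01 (SE 0.05) over both treatments. Its group means ran only from 55436 normalized counts in D_C to 58870 in D_B12.

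In the thick ascending limb, Slc12a1 varied most between libraries of one group. It stood at 68043, 73483, 62919 and 71893 normalized counts in ND_C and at 68089, 85284, 86150 and 127238 in D_C. Of the D_C libraries, 3 lay above every ND_C library, and D_C 4 was far above all 15 others, the next being ND_B12 1 at 92007. In untreated kidneys the log2 fold change was 0.41 (SE 0.15), with an adjusted p of 0.158 in edgeR. It was 0.52 (adjusted p = 0.0259) without ND_B12 4 and D_C 1, 0.52 (adjusted p = 0.0423) without D_C 1 alone, and 0.20 (adjusted p = 0.416) without D_C 4, so the call rests on which library is left out. In B12-treated kidneys the value was -0.27 (SE 0.15, adjusted p = 0.370), and over both treatments it was 0.07 (SE 0.11).

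Kcnj1 differed little, with group means between 13601 normalized counts in ND_B12 and 14946 in D_C, and a log2 fold change over both treatments of 0.04 (SE 0.07). It followed Slc12a1 across libraries more closely than any other pair of the 10 genes followed each other, with a Pearson r of 0.75 over the 16 libraries and 0.84 after the group means were taken off, given as a description. D_C 4 was also the highest library for Kcnj1, at 17825 normalized counts. The sum of the 5 marker genes of the thick ascending limb, of which Umod was the most abundant, did not follow this order. It was 293138 to 350393 normalized counts in ND_C and 244709 to 313948 in D_C. In untreated kidneys 4 of the 5 had a negative log2 fold change (median of the 5 -0.06). An unadjusted edgeR p below 0.05 was found for 1 in each direction. Ptger3, the 1 with a positive value, averaged 4354 normalized counts in ND_C and 6040 in D_C, and was highest in D_C 4, at 8777. Their part in the Slc12a1 values was not tested.

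Slc12a3 (chr8:95055829-95094170, plus strand), the target of thiazide diuretics, was the member with the clearest lower level in diabetic kidneys. It stood at 80356, 77213, 72455 and 73111 normalized counts in ND_C and at 69592, 59766, 57605 and 53766 in D_C. With B12 it stood at 57807, 69959, 73306 and 60603 in ND_B12 and at 59408, 64607, 69716 and 73188 in D_B12. All 4 D_C libraries lay below all 4 ND_C libraries, while D_B12 and ND_B12 overlapped. The untreated groups differed by a log2 fold change of -0.33 (SE 0.09), with an adjusted p of 0.0747 in edgeR and 0.0145 in DESeq2. Without ND_B12 4 and D_C 1 it was -0.41 (SE 0.09, adjusted p = 0.0142), a level 24.8% below that of ND_C. Over both treatments it was -0.15 (SE 0.07, adjusted p = 0.213) with all libraries and -0.21 (SE 0.06, adjusted p = 0.0483) without the 2, and in B12-treated kidneys it was 0.03 (SE 0.09).

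Slc12a3 had the largest non-coding part of the 10 genes. A share of 28.1 ± 6.12% (SD, n = 16) of its count was carried by transcripts annotated as retained introns, chiefly the single-exon transcripts Slc12a3-206 (chr8:95079081-95081843) and Slc12a3-203 (chr8:95081674-95084834). For the other members with such transcripts the mean share was 2.57% for Slc12a1, 5.57% for Stk39 and 6.28% for Wnk1, and over all genes it was 3.36 to 4.05% of a library's count. In Slc12a3 of untreated kidneys it was 34.6, 36.2, 35.1 and 28.7% in ND_C and 32.6, 25.8, 17.9 and 18.1% in D_C. With B12 it was 24.8, 25.4, 27.6 and 18.2% in ND_B12 and 33.1, 28.04, 30.6 and 33.2% in D_B12. The share was thus high in ND_C and D_B12, and low in ND_B12 and in D_C except D_C 1. The retained-intron share of Wnk1 was also higher on average in ND_C and D_B12 than in D_C and ND_B12. It was 7.63 ± 1.81% in ND_C, 7.48 ± 0.964% in D_B12, 5.08 ± 1.36% in D_C and 4.93 ± 0.837% in ND_B12 (SD, n = 4), and D_C 1 was again the highest of D_C, at 6.97%. Stk39 and Slc12a1 did not share this pattern. For Stk39 the mean was 7.87 ± 4.80% in D_C and 4.26 ± 2.29% in D_B12, and for Slc12a1 it was 3.20 ± 0.113% in ND_C and 2.43 ± 0.566% in D_B12 (SD, n = 4). Over all genes the share ran from 3.62 to 3.87% in ND_C and from 3.36 to 3.66% in ND_B12, and from 3.37 to 4.05% in D_C and from 3.75 to 4.02% in D_B12. Their part in the Slc12a3 differences was not tested. Counted over protein-coding transcripts alone, Slc12a3 stood at 50252 ± 2598 normalized counts in ND_C and 45654 ± 1706 in D_C, and at 49585 ± 4317 in ND_B12 and 45862 ± 4207 in D_B12 (SD, n = 4). On these counts D_C and ND_C overlapped, and the log2 fold change in untreated kidneys was -0.16 (SE 0.08, adjusted p = 0.274), in place of -0.33. This way of counting was chosen after seeing the data.

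**Figure D2:**
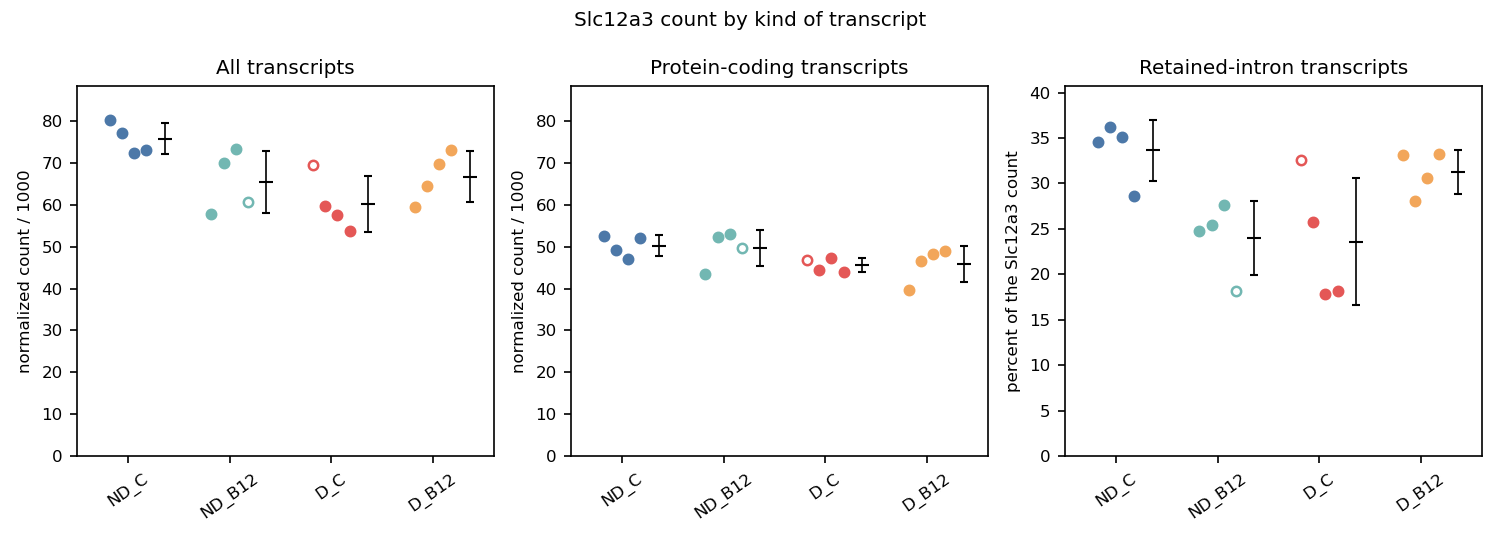
Slc12a3 in the 16 libraries by labelled group: normalized count over all transcripts (left, scaled as labelled) and over protein-coding transcripts (middle), and the percent of the Slc12a3 count in retained-intron transcripts (right). Points are libraries, open for ND_B12 4 and D_C 1, with group mean ± SD (n = 4) beside them. ND_C and D_C do not overlap in the left panel, and the right panel runs from 17.9 to 36.2%.

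Of the ENaC subunits, Scnn1b (chr7:121463946-121517737, plus strand) differed most in untreated kidneys. It stood at 1840, 1847, 2108 and 2124 normalized counts in ND_C and at 2228, 2419, 2436 and 2329 in D_C, with no overlap. Between them the log2 fold change was 0.25 (SE 0.08), with an adjusted p of 0.102 in edgeR, 0.0431 in DESeq2 and 0.0475 without ND_B12 4 and D_C 1. Counted over protein-coding transcripts alone, these groups overlapped. There D_C 1 stood at 1944 normalized counts, within the ND_C range of 1766 to 2069. The sign turned in B12-treated kidneys, where the 4 libraries of ND_B12 stood at 2100, 2256, 2235 and 2513 and those of D_B12 at 1819, 2105, 1881 and 2246 normalized counts, with a log2 fold change of -0.18 (SE 0.08, adjusted p = 0.249). Scnn1a (chr6:125297622-125321906, plus strand) gave 0.07 (SE 0.10) in untreated and -0.24 (SE 0.10, adjusted p = 0.212) in B12-treated kidneys. Scnn1g (chr7:121333545-121367755, plus strand), which lies on the same chromosome as Scnn1b, gave 0.18 (SE 0.10) and -0.08 (SE 0.10). For the collecting duct principal cell, where ENaC works, 5 markers were measured. In untreated kidneys 4 of them had a positive and 1 a negative log2 fold change with diabetes. An unadjusted edgeR p below 0.05 was found for 3, all of them positive. Aqp2, the vasopressin-regulated water channel and the most abundant of the 5, rose by a log2 fold change of 1.69 (adjusted p = 0.0436). The sum of the 5 markers was 18020 to 23140 normalized counts in ND_C and 25543 to 45375 in D_C. The part of these cells in the Scnn1b values was not tested.

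Slc9a3 (chr13:74269360-74317561, plus strand) had a log2 fold change of 0.07 (SE 0.07) in untreated and 0.13 (SE 0.07) in B12-treated kidneys. Its normalized counts ran from 9855 to 11037 in the 8 non-diabetic libraries and from 9555 to 12291 in the 8 diabetic ones, 6 of which lay above every non-diabetic library. Over both treatments it was 0.10 (SE 0.05, adjusted p = 0.282) with all libraries and 0.14 (SE 0.04, adjusted p = 0.0452) without ND_B12 4 and D_C 1. The 6 markers of the proximal tubule pointed the other way, with 5 of 6 log2 fold changes below 0 over both treatments.

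**Figure D3:**
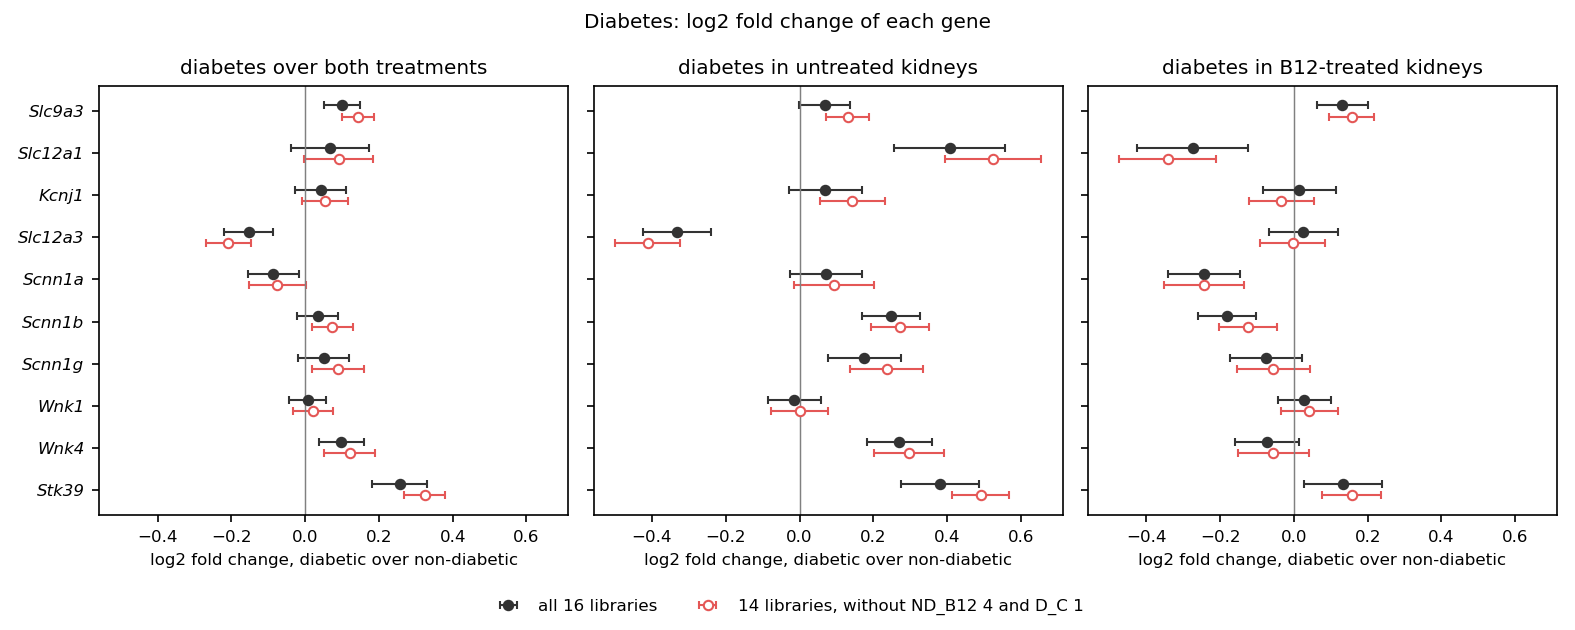
Log2 fold change of diabetic over non-diabetic kidneys (x axis) for each gene (y axis), over both treatments, in untreated and in B12-treated kidneys, with the standard error as bar. Black points use all 16 libraries and open red points the 14 libraries without ND_B12 4 and D_C 1. Leaving them out moves Stk39 from 0.38 to 0.49 and Slc12a3 from -0.33 to -0.41 in untreated kidneys.

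B12 treatment was compared within each genotype. In non-diabetic kidneys 0 of 10 members and 0 of all genes tested passed the quasi-likelihood test, and none of the 10 passed in DESeq2, against 0.0236%. An unadjusted p below 0.05 was found for 2 of 10 members, against 7.62% of genes, and no member was without overlap, against 4.81%. These were Scnn1b, at a log2 fold change of 0.21 (SE 0.08, adjusted p = 0.602), and Slc12a3, at -0.21 (SE 0.09, adjusted p = 0.637). With coding transcripts alone, Slc12a3 gave -0.05 (SE 0.08) there. In the 5 libraries that both sources place in the same group, the values were 0.21 for Scnn1b and -0.11 for Slc12a3.

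In diabetic kidneys again 0 of 10 members passed, as did 0 of all genes, and 2 of 10 members had an unadjusted p below 0.05, against 13.6% of genes. Slc12a1 stood at 58980, 63423, 63934 and 59408 normalized counts in D_B12, below all 4 D_C libraries, as 1 of 10 members against 6.58% of all genes without overlap. Its log2 fold change was -0.58 (SE 0.15), with an adjusted p of 0.123 in edgeR and 0.0111 in DESeq2, where 3.78% of genes were called. Without D_C 4 it was -0.36 (SE 0.12, adjusted p = 0.287). The sum of the 5 markers of the thick ascending limb had the same direction. It was 244709 to 313948 normalized counts in D_C and 198155 to 250114 in D_B12. Of the 5, 3 had a negative log2 fold change, all with an unadjusted edgeR p below 0.05. The other 2 had a positive value (median of the 5 -0.30). Of the 9 partners in that segment 7 had a negative value, 5 of them with an unadjusted p below 0.05 (median of the 9 -0.43), beside a median of -0.00044 over all genes tested. Their part in the Slc12a1 difference was not tested. Scnn1b gave -0.22 (SE 0.08, adjusted p = 0.219), and all 5 principal cell markers were also negative (median -0.43, 3 with an unadjusted p below 0.05), with a sum of 25543 to 45375 normalized counts in D_C and 20363 to 35678 in D_B12. Their part in the Scnn1b values was not tested either. Stk39 gave -0.19 (SE 0.11, adjusted p = 0.462). By the match to the published means, the names of these groups would be nearly exchanged.

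The difference between the B12 effects in diabetic and in non-diabetic kidneys was tested last. No member passed, as no gene did in edgeR, and 5 of 10 had an unadjusted p below 0.05, against 16.1% of genes. They were Scnn1b at -0.43 (SE 0.11, adjusted p = 0.0902), Slc12a1 at -0.68 (SE 0.21, adjusted p = 0.139), Wnk4 at -0.34 (SE 0.12, adjusted p = 0.189), Scnn1a at -0.32 (SE 0.14, adjusted p = 0.267) and Slc12a3 at 0.36 (SE 0.13, adjusted p = 0.195). DESeq2 called 2 of them, Scnn1b (adjusted p = 0.0165) and Slc12a1 (adjusted p = 0.0396), against 4.62% of genes. For Slc12a1 this value was -0.46 (adjusted p = 0.227) without D_C 4, and for Slc12a3 it was 0.10 (adjusted p = 0.760) with coding transcripts alone.

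**Figure D4:**
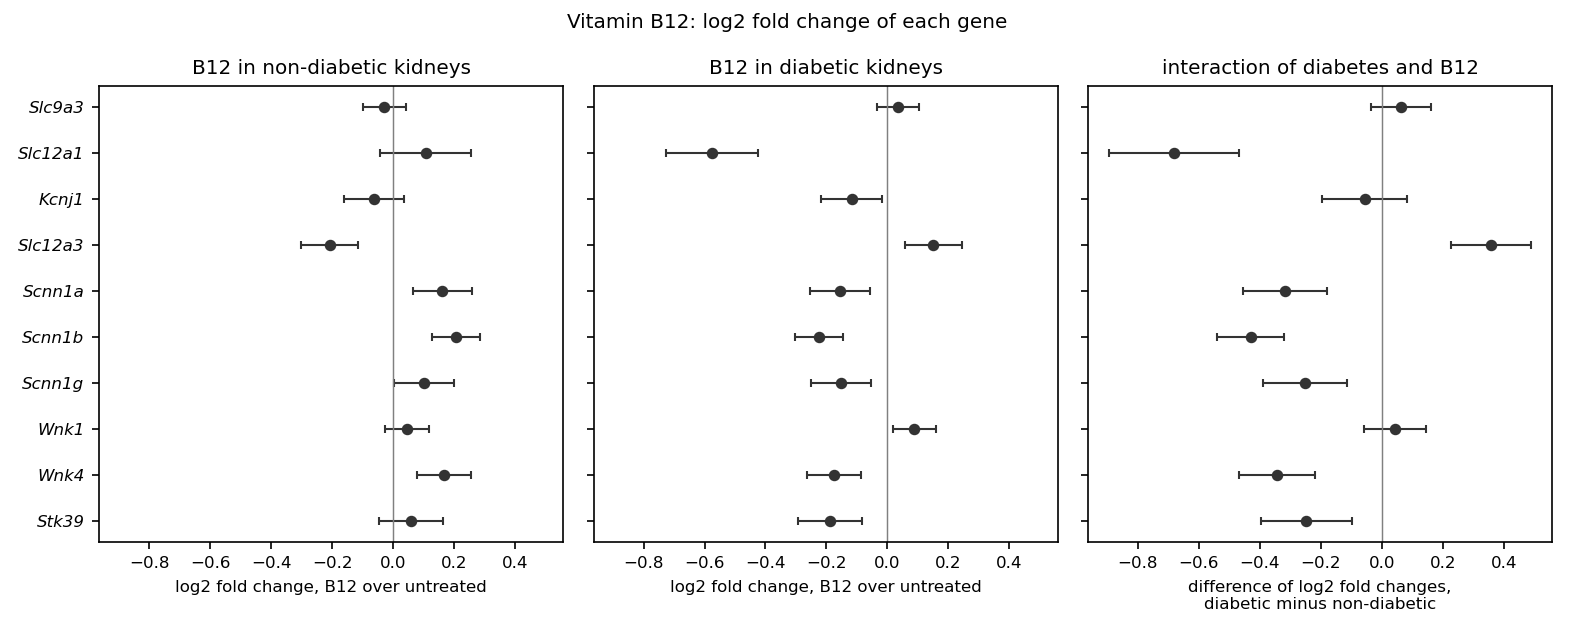
Log2 fold change of B12-treated over untreated kidneys (x axis) for each gene (y axis) in non-diabetic and in diabetic kidneys, and the difference between these log2 fold changes, with the standard error as bar. Slc12a1 in diabetic kidneys lies furthest from 0, at -0.58, and its difference is -0.68.

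The transcripts whose sequences are given above differed in share mainly from each other. Of the Slc12a1 count, 84.8 ± 3.23% (SD, n = 16) was carried by Slc12a1-203, 9.33 ± 2.16% by Slc12a1-202 and 3.34 ± 1.198% by Slc12a1-201, and this order held in every library. The share of Slc12a1-203 was 84.8% in diabetic and 84.7% in non-diabetic kidneys, and D_C 4, the library with the highest Slc12a1 count, had a share of 89.4%. The share of Kcnj1-202 was 28.01 ± 3.32% in diabetic and 23.7 ± 3.02% in non-diabetic kidneys (SD, n = 8), and a two-sided exact permutation test gave p = 0.0185, or 0.300 after Benjamini-Hochberg adjustment over 42 tests of shares. The highest values were 31.9 and 33.3%, in D_C 2 and D_C 3, and the groups overlapped. Of the 42 tests, 0 passed the adjustment, and comparisons of 4 with 4 libraries could not go below an exact p of 0.0286.

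**Figure D5:**
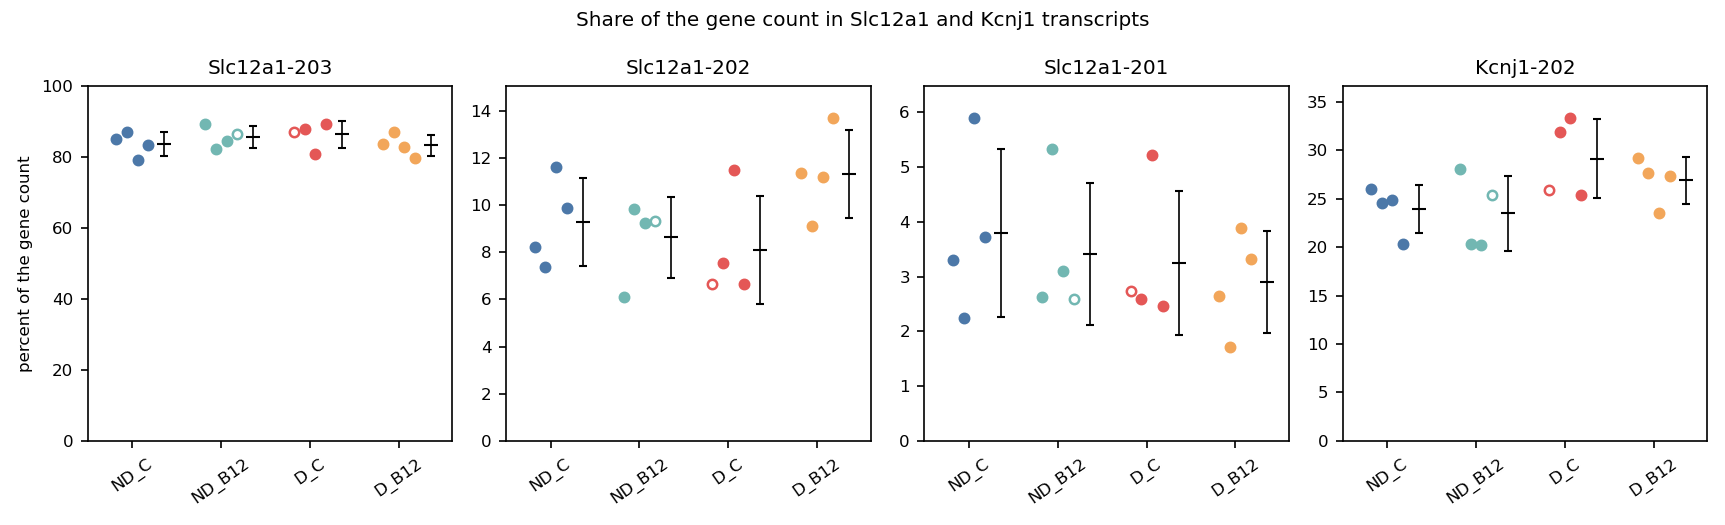
Percent of the gene's count (y axis, from 0, scales differ) carried by Slc12a1-203, Slc12a1-202, Slc12a1-201 and Kcnj1-202 in the 16 libraries by labelled group. Points are libraries, open for ND_B12 4 and D_C 1, with group mean ± SD (n = 4) beside them. Slc12a1-203 lies between 79.2 and 89.4% in every group, and Kcnj1-202 reaches 33.3% in D_C.

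Wnk4-202, a transcript annotated as a target of nonsense-mediated decay, carried 16.1 ± 4.90% of the Wnk4 count in D_C and 10.3 ± 1.84% in D_B12 (exact permutation p = 0.0571, adjusted 0.300). For Wnk1, the transcripts Wnk1-202 and Wnk1-203 are annotated over the same span, and in each of the 16 libraries at least 93.2% of their joint count was assigned to 1 of the pair. It was Wnk1-203 in 4 libraries, ND_C 1, ND_C 3, ND_B12 2 and D_B12 3, and Wnk1-202 in the other 12. Wnk1-201 begins within an intron downstream of the exons of the kinase domain, where the short kidney form of WNK1 that lacks this domain is known to start. Its count per base was 36.5% of that of the full-length transcripts in the median library, between 25.5 and 41.2%, with group means from 33.8 ± 5.93% in D_B12 to 35.8 ± 6.38% in D_C (SD, n = 4). The annotated Wnk1-201 is only 646 bases long, so reads from further along that form would count toward other transcripts.

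Ratios between members within a library do not depend on scaling between libraries. The log2 ratio of Slc9a3 to Slc12a3, proximal against distal transport, was -2.50 ± 0.24 in diabetic and -2.75 ± 0.18 in non-diabetic kidneys (SD, n = 8). The difference of 0.25 gave an exact permutation p of 0.0339 (adjusted p = 0.160 over 6 ratios), and it was 0.34 (adjusted exact permutation p = 0.0315) without ND_B12 4 and D_C 1. The ratio of Scnn1b to Scnn1a differed by 0.11 (adjusted p = 0.160, exact permutation test), and that of Kcnj1 to Slc12a1 by -0.02 (adjusted p = 0.877, exact permutation test).

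Around these 10 genes, 51 genes of 6 lists of partners were measured. Over both treatments 2 of the 51 rose and 3 fell with diabetes in edgeR, against the 3.02% of all genes given above, and without ND_B12 4 and D_C 1 these counts were 6 and 7, against 10.2%. Of the 9 partners in the thick ascending limb, Casr, the calcium-sensing receptor, fell by 0.45 on the log2 scale (adjusted p = 0.0382) over both treatments.

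Of the 8 proximal partners, Slc34a1, the main phosphate transporter, fell by 0.25 (adjusted p = 0.0178) and Pdzk1ip1 fell by 0.23 on the log2 scale (adjusted p = 0.0178) over both treatments in edgeR. Slc34a1 ran from 336801 to 391540 normalized counts in the 8 diabetic and from 398950 to 456428 in the 8 non-diabetic libraries, without overlap. Nherf1, the scaffold that binds NHE3, fell by 0.33 on the log2 scale in B12-treated kidneys (adjusted p = 0.0487). In the aldosterone list of the collecting duct, 1 of 10 passed: St14, a membrane protease, rose by 0.30 (adjusted p = 0.0331) over both treatments and by 0.62 (adjusted p = 0.0227) in untreated kidneys. Nr3c2, the mineralocorticoid receptor, and Sgk1, its kinase target, did not pass in any comparison. None of the 10 distal convoluted tubule partners, the 9 WNK and SPAK relatives or the 5 sodium pump subunits passed in any of the 6 comparisons with all libraries. Without ND_B12 4 and D_C 1, the sodium pump subunits Atp1b1, at a log2 fold change of 0.43 (adjusted p = 0.00394), and Atp1b3, at 0.26 (adjusted p = 0.0330), rose in untreated kidneys.

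The gene whose log2 CPM (counts scaled to library size) followed each member most closely over the 16 libraries was searched among 16157 genes. For Scnn1b it was Meak7 (Pearson r = 0.94), for Stk39 Gm6560 (0.94), for Wnk4 2410022M11Rik (0.93), for Slc12a1 Pla1a (0.92) and for Slc12a3 Zmynd15 (0.92). Scnn1a went with Atp6v1g3 (0.91), a proton pump subunit of intercalated cells, Scnn1g with Mul1 (0.90), Slc9a3 with Ttc39c (0.88), Kcnj1 with Ckb (0.88) and Wnk1 with 1700087I21Rik (0.76). These are descriptions over libraries that share groups, depth and dates. Among the members, Slc12a3 ran against Stk39 (r = -0.78 over 16 libraries, and -0.69 after the group means were taken off).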

How the data were processed

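Whole-kidney RNA of 16 mice was measured. Per the labels the libraries were made with a Watchmaker Total RNA kit, and paired reads were mapped by the authors to GRCm39 using STAR. They deposited estimated counts, in whole numbers, for genes and for transcripts, from StringTie with GENCODE models. Such expected counts are rebuilt from coverage, transcript length and a read length, and the setting of that length and the strand setting are not given in the sources used here. Reads of a gene and of an overlapping antisense gene may therefore not be separated, which touches all members but Scnn1g and Kcnj1. The submitters' processing notes also name bcl2fastq 2.20.0, DESeq2 and limma. Transcript counts summed to the gene counts for each gene, so the planned use of summed transcripts gave the same values.

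Columns were matched to samples by the number that ends each library name, and 0 columns were left over. edgeR 4.0.16 (R 4.3.3) with TMM scaling and its quasi-likelihood test was fitted to all 16 libraries with a mean per group, over the 25408 genes with at least 100 counts in total, with Benjamini-Hochberg adjustment over them and 0.05 as threshold. Printed normalized counts were divided by median-of-ratios size factors. DESeq2 1.42.0 was an alternative, as were other scalings and filters, a replicate block, the date in the library names, the compared groups alone, each library left out, and the libraries that the published group means place elsewhere. Shares and ratios were tested with two-sided exact permutation tests over libraries (Python 3.11.15). The fits were tested on simulated data with known changes. The labels call the libraries of a group biological replicates, and p-values measure the spread between them. With 65271308 to 91771136 counts per library, the lowest normalized count of any member was 1819. Estimated counts are not independent molecules.

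The 10 members, the gene lists and the tests were chosen with earlier results of these data known. All members are named. Of a list, genes below 0.05 adjusted are named, or at most the 2 with the smallest p. Nr3c2, Sgk1, Ptger3, Atp1b1 and Atp1b3 were chosen after their values were seen. Some genes of the lists are counted but not reported here by name. For each member the gene with the highest Pearson r was taken among genes with a mean of at least 1 CPM. Exon sequences were read from the GRCm39 genome with GENCODE exons. Protein sequences were not used here.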

Additional observations from a re-analysis of the deposited data

Results flagged for a closer look

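Dixon's test was run in 96 sets of 4 libraries, of which chance alone would be expected to mark about 1 in 20, and it marked 5. All 5 are transcript shares and none is a gene's count. The share of Wnk1-202 in the Wnk1 count was 5.10% in ND_B12 2 and 6.15% in D_B12 3, far below the 3 other libraries of each group. The share of Wnk1-203 was 86.9% in ND_B12 2 and 84.1% in D_B12 3, far above the others. The share of Slc9a3-203 in D_B12 3 was 97.7%, a gap that is large only beside the narrow range of that group.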

How the results depend on the processing

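Among 10 members, the number with an adjusted p below 0.05 in edgeR was 0 in each of 6 comparisons, and it stayed 0 under the other scalings and filters, the replicate block, the compared groups alone and protein-coding transcripts (added after seeing the data). DESeq2 called 1 for diabetes over both treatments, 4 in untreated kidneys, 1 for B12 in diabetic kidneys and 2 for the interaction. Without ND_B12 4 and D_C 1 the counts were 3 over both treatments and 4 in untreated kidneys, and 1 of 6 ratios passed. Leaving out 1 library gave 0 to 1 over both treatments and 0 to 3 in untreated kidneys, in both cases by leaving out D_C 1. With the date as a covariate 2 passed for the interaction, Scnn1b and Wnk4, against 2.96% of all genes.

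With the date as a covariate the sign turned over both treatments for Slc12a1 (-0.25), Scnn1b (-0.14), Scnn1g (-0.059), Kcnj1 (-0.045), Wnk1 (-0.18) and Wnk4 (-0.21), and in untreated kidneys for Scnn1a (-0.15). The cause was not tested, and date and group cannot be told apart for D_B12, or for diabetes within either treatment. Without ND_B12 4 and D_C 1 the Wnk1 value in untreated kidneys was 0.00036. With 1 library left out, the values over both treatments ran from -0.0299 to 0.13 for Slc12a1, from -0.0027 to 0.0802 for Kcnj1 and from -0.0146 to 0.0341 for Wnk1. In untreated kidneys they ran from -0.0122 to 0.16 for Scnn1a, from -0.0316 to 0.13 for Kcnj1 and from -0.0574 to 0.0365 for Wnk1. The difference in the share of Slc12a1-203 ran from -0.611 to 0.897 percentage points and that in the log2 ratio of Kcnj1 to Slc12a1 from -0.0599 to 0.0486.

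Replicate numbers did not pair the libraries: correlations of their deviations ran from -0.345 to 0.277 over 24 pairs of libraries with the same number, and 5 were above 0.1. With the replicate block 0 of 10 members passed in every comparison, and over all genes 478 rather than 767 passed over both treatments.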
